A study of Mus musculus with 4 samples.

Results

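The nuclear genes for the subunits of the mitochondrial respiratory chain and ATP synthase were followed through the leukocytes of transplanted mouse lungs. They were chosen by symbol alone: Nduf followed by a, b, c, s or v and a number (complex I), Uqcr (complex III), Cox4 to Cox8 (complex IV) and Atp5 (ATP synthase, also called complex V). This found 81 of the 32285 genes in the files, of which 38 belong to complex I, 8 to complex III, 18 to complex IV and 17 to ATP synthase. Over all cells 77 of them had at least 100 UMIs (unique molecular identifiers, each standing for 1 captured RNA molecule), and Cox7b2, Cox8b, Cox8c and Ndufa4l2 had fewer. Left lungs of B6 mice were stored cold for 60 min at 4 °C, kept for 45 min at 28 °C, grafted into B6 recipients and collected 2 h after reperfusion. All recipients received an intravenous injection just before transplantation, either resolvin D1 (RvD1, a lipid mediator derived from docosahexaenoic acid) at 200 ng in 200 µL of 1% ethanol or vehicle. CD45+ leukocytes were sorted and split into recipient-derived and donor-derived cells, which gave 4 groups: RvD1 recipient, vehicle recipient, RvD1 donor and vehicle donor. Each group is 1 library of cells pooled from 2 lungs, so a difference between groups has no replicate check, and every ratio compares libraries with no test.

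Complex I takes electrons from NADH, complex III passes them from ubiquinol to cytochrome c, and complex IV hands them to oxygen, while ATP synthase uses the proton gradient that these complexes build. A core of the subunits is encoded in mitochondrial DNA, and the nuclear subunits described here are made in the cytosol, imported and assembled with them. Neutrophils are known for few mitochondria and for relying mainly on glycolysis, whereas monocytes and lymphocytes carry a fuller respiratory chain.

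The libraries held 7345, 5829, 5024 and 5527 cells after filtering in the RvD1 recipient, vehicle recipient, RvD1 donor and vehicle donor groups, with a median of 5386, 5830, 6463.5 and 7905 UMIs per cell in the same order. Each pair of libraries shared 4 to 14 cell barcodes. Clusters were named from marker genes, and in the 6 classes that had at least 100 cells in every library all markers of the class had UMIs in all 4 libraries. The sort on CD45 still left 399 endothelial-like cells. Of these, 176 and 50 were in the RvD1 and vehicle recipient libraries and 115 and 58 in the RvD1 and vehicle donor libraries. The RvD1 libraries were made with Cell Ranger 7.0.1 and the vehicle libraries with 6.1.1, per the file headers, so the software version and the treatment cannot be told apart. UMIs were summed over the cells of a class in a library and divided by all UMIs of those cells, as CPM, counts per 1000000. A summed level cannot separate fewer transcripts per cell from more RNA of other genes.

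To show the regulatory sequence in front of genes at opposite ends of the comparison with neutrophils, 4 promoters are given. Ndufa5, Ndufa11 and Atp5g2 had the lowest levels in neutrophils relative to the other classes among subunits with such a motif, and Cox8a had nearly equal levels. The sequences are those of RefSeq on GRCm38.p6, 250 bases before to 50 bases after the start, 5′ to 3′ on the strand of the gene. Capitals mark a match to the motif of the transcription factor NRF1 (GCGCA and GCGC with 1 free base between them) in the first 3 and to CCGGAAGT or its reverse complement, the motif of the ETS family, in the last.
Ndufa5, chr6:24527477-24527776, minus strand: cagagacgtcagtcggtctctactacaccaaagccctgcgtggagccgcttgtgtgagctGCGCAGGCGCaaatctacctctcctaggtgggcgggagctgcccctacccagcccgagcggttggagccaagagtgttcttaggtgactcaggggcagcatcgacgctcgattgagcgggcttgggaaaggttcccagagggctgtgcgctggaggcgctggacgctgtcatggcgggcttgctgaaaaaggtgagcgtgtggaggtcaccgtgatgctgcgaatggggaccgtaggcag
Ndufa11, chr17:56717512-56717811, plus strand: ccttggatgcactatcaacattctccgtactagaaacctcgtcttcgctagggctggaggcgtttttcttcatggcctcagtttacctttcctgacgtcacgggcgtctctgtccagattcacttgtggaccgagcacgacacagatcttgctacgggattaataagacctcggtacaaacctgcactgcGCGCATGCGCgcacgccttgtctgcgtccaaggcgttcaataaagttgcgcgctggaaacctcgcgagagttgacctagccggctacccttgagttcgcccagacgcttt
Atp5g2, chr15:102670998-102671297, minus strand: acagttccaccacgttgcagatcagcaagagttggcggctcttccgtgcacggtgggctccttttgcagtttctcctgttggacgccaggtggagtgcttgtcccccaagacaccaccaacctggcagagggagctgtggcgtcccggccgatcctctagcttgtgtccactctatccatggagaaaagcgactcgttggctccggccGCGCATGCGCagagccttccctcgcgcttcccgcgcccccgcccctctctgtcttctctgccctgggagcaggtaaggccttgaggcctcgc
Cox8a, chr19:7217567-7217866, minus strand: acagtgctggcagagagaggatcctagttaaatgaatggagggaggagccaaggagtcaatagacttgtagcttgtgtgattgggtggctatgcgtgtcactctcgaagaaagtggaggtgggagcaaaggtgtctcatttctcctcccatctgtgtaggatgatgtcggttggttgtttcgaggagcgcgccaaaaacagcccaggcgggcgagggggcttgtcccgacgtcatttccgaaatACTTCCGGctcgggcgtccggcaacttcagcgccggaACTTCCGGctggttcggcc

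Among 64 of the 81 genes that had a promoter in the RefSeq table, 15 held the NRF1 motif on either strand (23.4%), against 5.19% of the promoters of all 27025 genes in the table. AAGATGGCG, a core of the motif of YY1, was in 7 of the 64 (10.9%), against 1.64% of all promoters. CCGGAAGT was in 5 of the 64 (7.81%), against 4.31% of all promoters. The NRF1 motif had the same letters in Ndufa11 and Atp5g2, where it reads the same on both strands. Ndufa5 has a second listed start whose overlapping window holds the same match. The 15 genes with the NRF1 motif had a median level 2.11 above neutrophils on the log2 scale, and the 44 genes without it that were described had a median of 1.93. Over all genes described, the medians were 0.87 for 580 with the NRF1 motif and 0.39 for 4138 without it. For the other 2 motifs the subunit genes with a match were the lower ones. The medians with and without a match were 1.94 and 2.03 for YY1 and 1.78 and 2.02 for the ETS motif. A match of letters is a description of the window and not evidence of binding.

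Among the 6 classes compared, neutrophils had the lowest level of every complex in all 4 libraries. All 81 genes together gave 5238 and 4676 CPM in RvD1 and vehicle recipient neutrophils and 4663 and 4457 CPM in RvD1 and vehicle donor neutrophils, or 0.446 to 0.524% of their UMIs. In classical monocytes they gave 17430 and 17421 CPM in the RvD1 and vehicle recipient libraries and 19425 and 15370 CPM in the RvD1 and vehicle donor libraries. NK cells had 16255 and 15693 CPM in the RvD1 and vehicle recipient libraries and 15984 and 13250 CPM in the RvD1 and vehicle donor libraries. T cells (11019 to 14310 CPM), B cells (10298 to 12867 CPM) and nonclassical monocytes (8775 to 12602 CPM) overlapped one another and lay between. Among these 6 classes, classical monocytes were highest, NK cells next and neutrophils lowest for each complex in all 4 libraries. T and B cells changed places between libraries for complex I, and B cells and nonclassical monocytes for complexes III and IV.

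**Figure D1:**
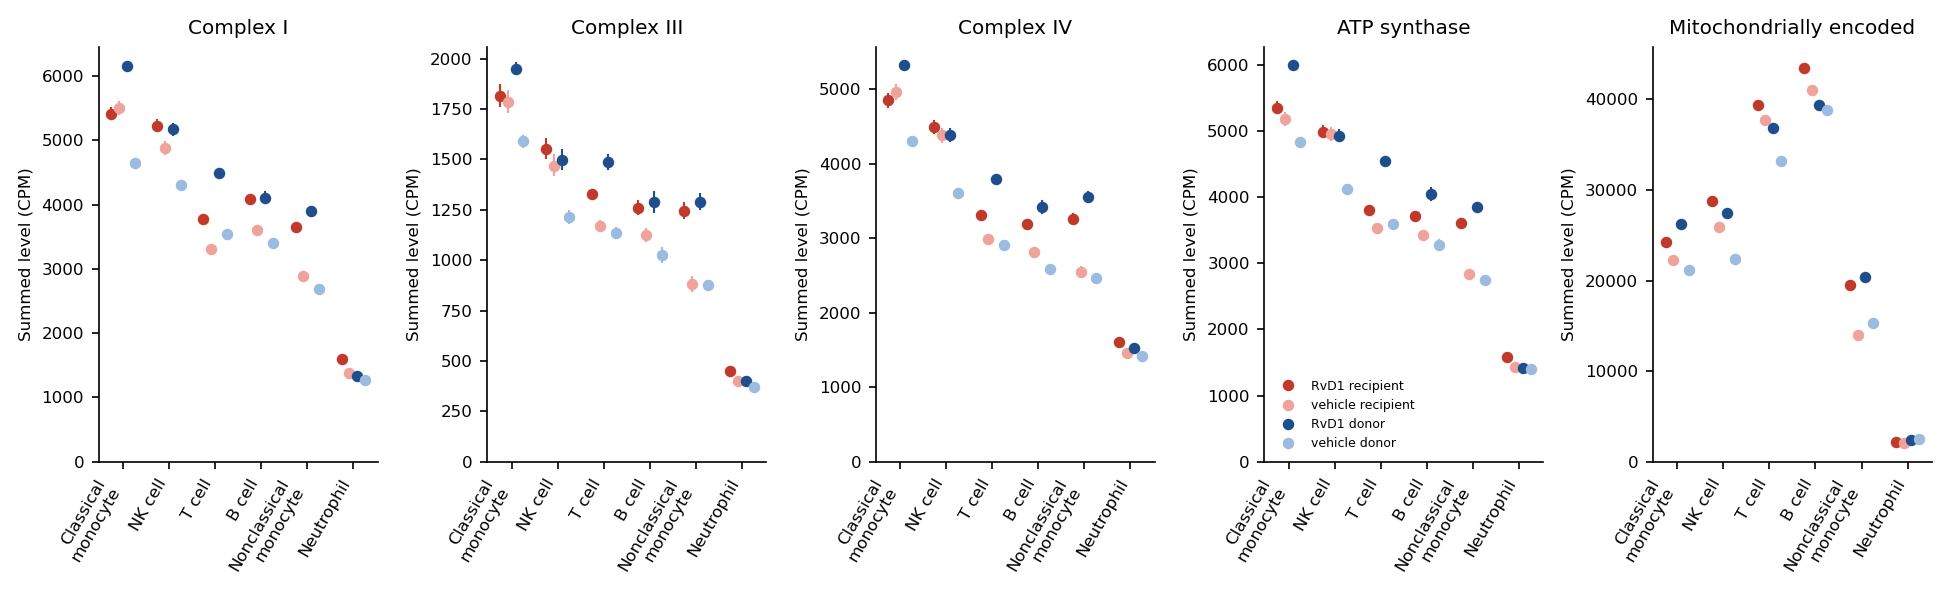
Summed level of the nuclear subunits of each complex, and of the mitochondrially encoded subunits, in 6 leukocyte classes (CPM of all UMIs of the class, linear axis from 0). Each point is 1 library, with a vertical line for the 95% Poisson interval of its count. Neutrophils lie at 4457 to 5238 CPM for all nuclear subunits together, below the points of the other 5 classes in every panel.

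Against neutrophils of the same library, the summed level was higher by 1.87 ± 0.14 in classical monocytes, 1.14 ± 0.22 in nonclassical monocytes, 1.35 ± 0.18 in T cells, 1.28 ± 0.12 in B cells and 1.68 ± 0.10 in NK cells (log2, mean ± SD over 4 libraries of different groups). On a linear scale this is 3.65, 2.20, 2.55, 2.43 and 3.21-fold in the same order. A gene was called higher when it was at least 1.5-fold higher in all 4 libraries, with at least 100 UMIs over the class and neutrophils in each library. By this rule 69 of 73 subunit genes were higher in classical monocytes than in neutrophils, where 40.1% of all 6631 genes were. In NK cells 67 of 73 were higher (50.2% of all genes), in B cells 62 of 72 (43.2%), in T cells 59 of 73 (47.8%) and in nonclassical monocytes 58 of 72 (44.6%). None was called lower in classical monocytes (20.5% of all genes), nonclassical monocytes (14.7%), T cells (22.1%), B cells (24.2%) or NK cells (21.0%). The 5 comparisons share the neutrophil libraries. The median over the subunit genes was 2.29, 1.64, 1.85, 1.77 and 2.17 on the log2 scale in classical monocytes, nonclassical monocytes, T cells, B cells and NK cells, against 0.52, 0.71, 0.86, 0.68 and 0.97 over all genes in the same order.

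Complex I held the widest range of ratios. Averaged over the 5 classes, its 7 core genes (the subunits that carry the flavin, the iron-sulfur clusters and the quinone site) had a median of 2.42 above neutrophils, and 28 of its supernumerary genes had a median of 2.01 (log2). Ndufa5, a supernumerary subunit of the matrix arm (chr6:24518666-24528013 on GRCm38), was almost silent in neutrophils. It had 87.8 and 80.9 CPM in RvD1 and vehicle recipient T cells and 98.1 and 77.5 CPM in RvD1 and vehicle donor T cells, against 1.248 and 0.937 CPM in RvD1 and vehicle recipient neutrophils and 1.70 and 1.72 CPM in RvD1 and vehicle donor neutrophils. The neutrophil levels rest on 14 to 19 UMIs a library, and every T cell library lies far above every neutrophil library. The mean log2 ratio of Ndufa5 over neutrophils was 6.26 ± 0.53 in NK cells, 6.07 ± 0.51 in B cells, 5.98 ± 0.40 in T cells, 5.32 ± 0.54 in classical monocytes and 4.86 ± 0.42 in nonclassical monocytes (SD over 4 libraries), and 51.9-fold as a mean over the classes. The same gene was thus higher in lymphocytes than in monocytes, at 77.5 to 113 CPM in T, B and NK cells and 33.9 to 69.9 CPM in both monocyte classes.

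Ndufa11, a membrane-arm subunit, had 142 and 132 CPM in RvD1 and vehicle recipient NK cells and 135 and 115 CPM in RvD1 and vehicle donor NK cells, against 4.86 and 2.65 CPM in RvD1 and vehicle recipient neutrophils and 4.81 and 4.43 CPM in RvD1 and vehicle donor neutrophils. Its ratios were close to one another in the 5 classes, between 4.44 and 5.004 (log2). Ndufc2, another membrane-arm subunit, followed with a mean of 4.28, and Ndufa12 of the matrix arm with 3.99. Among the core genes the ratios were 3.79 for Ndufs8, 3.603 for Ndufs3 and 1.21 for Ndufs1, whose product is the largest iron-sulfur subunit. Other members of the complex were nearly as high in neutrophils as elsewhere. Ndufa7 had 124 to 159 CPM in neutrophils and a mean ratio of 0.30, and Ndufb9 had 84.8 to 128 CPM and a mean ratio of 0.35. Ndufa9, a matrix-arm subunit, passed the minimum of UMIs in 3 classes only, with ratios of 4.25 in classical monocytes, 4.203 in T cells and 4.35 in NK cells. Subunits of a single complex thus had ratios from nearly equal to 51.9-fold between the same cells.

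The 8 genes of complex III had a median ratio of 1.99 and ran from 0.75 for Uqcrq to 3.07 for Uqcrb, both of them small subunits of the membrane part. Uqcrc1, a core subunit, and Uqcrfs1, the Rieske iron-sulfur protein, had means of 2.86 and 2.68. Uqcrh, the hinge protein that docks cytochrome c1, had 607 and 616 CPM in RvD1 and vehicle recipient classical monocytes and 572 and 497 CPM in RvD1 and vehicle donor classical monocytes, against 169 and 139 CPM in RvD1 and vehicle recipient neutrophils and 136 and 136 CPM in RvD1 and vehicle donor neutrophils. Cyc1, cytochrome c1 itself, is a subunit of this complex that the symbol rule does not take, and it was 2.82 to 3.603 above neutrophils over the 5 classes.

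Complex IV differed least. Its 11 ubiquitous nuclear subunits, with Ndufa4 counted here because its product is now assigned to this complex, had a median of 1.47. Cox8a, the smallest subunit, had 439 and 367 CPM in RvD1 and vehicle recipient T cells and 554 and 380 CPM in RvD1 and vehicle donor T cells, against 462 and 410 CPM in RvD1 and vehicle recipient neutrophils and 423 and 399 CPM in RvD1 and vehicle donor neutrophils. T cells and neutrophils overlapped, with a mean ratio of 0.02 ± 0.25, and the ratio was −0.08 ± 0.16 in B cells, −0.16 ± 0.10 in nonclassical monocytes and 0.69 ± 0.11 in classical monocytes. Cox4i1, the regulatory subunit IV in its ubiquitous form, had 892 and 881 CPM in RvD1 and vehicle recipient classical monocytes and 916 and 794 CPM in RvD1 and vehicle donor classical monocytes, against 237 and 211 CPM in RvD1 and vehicle recipient neutrophils and 224 and 202 CPM in RvD1 and vehicle donor neutrophils. Cox7b had the largest mean ratio among those with a Cox symbol, 2.56, and Ndufa4 reached 3.19. Cox7a2l, a factor that joins complexes III and IV into supercomplexes, had 501 and 438 CPM in RvD1 and vehicle recipient T cells and 412 and 321 CPM in RvD1 and vehicle donor T cells, against 66.5 and 67.7 CPM in RvD1 and vehicle recipient neutrophils and 70.9 and 52.8 CPM in RvD1 and vehicle donor neutrophils. It was higher in T cells (321 to 501 CPM) than in classical monocytes (251 to 310 CPM) in every library.

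In ATP synthase the rotor ring stood out from the other parts. Atp5g1, Atp5g2 and Atp5g3, which encode the same mature ring subunit, had a median ratio of 3.25 over neutrophils, against 2.01 for the catalytic head and central stalk, 1.72 for the peripheral stalk and 1.89 for the membrane subunits. Atp5g2 had 338 and 284 CPM in RvD1 and vehicle recipient T cells and 332 and 238 CPM in RvD1 and vehicle donor T cells, against 17.9 and 13.9 CPM in RvD1 and vehicle recipient neutrophils and 14.9 and 14.3 CPM in RvD1 and vehicle donor neutrophils. Of the ring UMIs, Atp5g2 took 48.4 to 57.2% in T cells and 51.1 to 56.8% in B cells, against 29.97 to 42.4% in neutrophils, where Atp5g1 (29.6 to 36.3%) and Atp5g3 (27.3 to 35.1%) had nearly equal parts. In alveolar macrophages of the vehicle donor library Atp5g3 led with 39.2% of 4075 ring UMIs, while in the RvD1 donor library Atp5g2 led with 42.5% of 228. Atp5o, the subunit that ties the peripheral stalk to the head, had a ratio of 3.47, the catalytic Atp5a1 and Atp5b 2.53 and 1.84, and Atp5e of the central stalk 0.98. The smallest ratios were those of Atp5md and Atp5l, membrane subunits that take part in joining ATP synthase into dimers, with 0.27 and 0.38. Atp5l had 309 to 349 CPM in neutrophils.

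**Figure D2:**
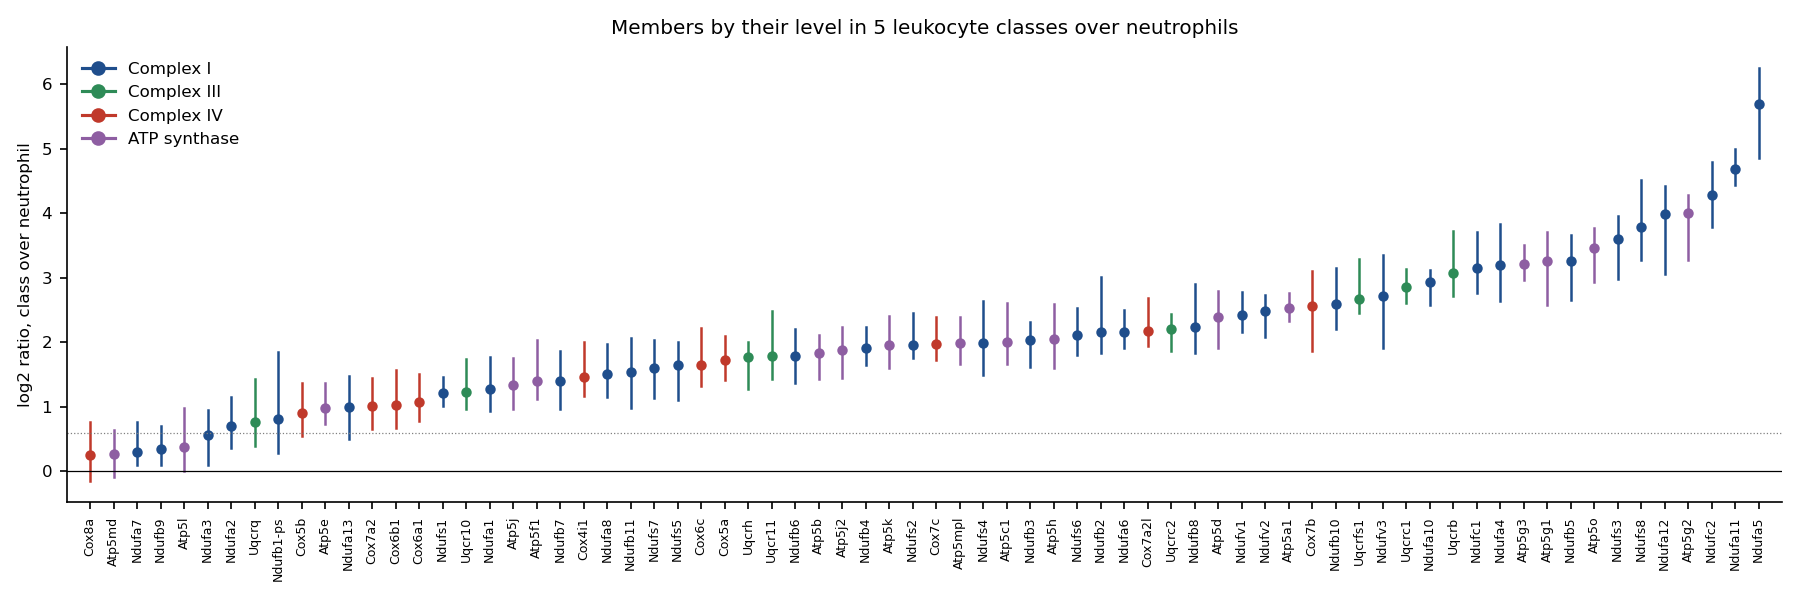
Log2 ratio over neutrophils of the 72 subunit genes that had enough UMIs in all 5 classes, coloured by the complex that the symbol gives. Points are the mean over classical monocytes, nonclassical monocytes, T cells, B cells and NK cells, each itself a mean over 4 libraries, lines run from the lowest to the highest class, and the dotted line marks 1.5-fold. Cox8a is lowest at 0.25 and Ndufa5 highest at 5.70.

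Which class had the highest level varied by gene. Of the 72 genes, 40 were highest in classical monocytes and 25 in NK cells in the RvD1 recipient library, 48 and 20 in the vehicle recipient library, 58 and 10 in the RvD1 donor library and 45 and 21 in the vehicle donor library. Nonclassical monocytes and neutrophils had the highest level of none of the 72 in any library. Neutrophils had the lowest level of 67 and 66 of the 72 in the RvD1 and vehicle recipient libraries and of 69 in both donor libraries. This ranking was made for the 72 genes only and has no share over all genes beside it. It therefore does not show what is particular to the subunit genes. Many of these small genes have processed pseudogene copies, and the sources used here do not say how reads shared with a copy were treated, so most comparisons are of 1 gene between cells. The shares of paired or alternative genes given for the rotor ring and the isoforms set 2 or 3 genes against each other and carry this limit.

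The subunits encoded in mitochondrial DNA were lower in neutrophils by more than the nuclear ones. Together they gave 38781 to 43507 CPM in B cells, 33149 to 39396 CPM in T cells and 21187 to 26295 CPM in classical monocytes, against 2028 to 2470 CPM in neutrophils. B cells, with a median ratio of 4.54 over 13 mitochondrial genes, exceeded classical monocytes (3.61 over 12 genes), while the nuclear subunits had the opposite order (1.77 in B cells and 2.29 in classical monocytes). A limit on the mitochondrial share of a cell's UMIs was part of the filter on cells. For mt-Co1, the catalytic core of complex IV, the levels were 5502 and 5913 CPM in RvD1 and vehicle recipient T cells and 5346 and 5401 CPM in RvD1 and vehicle donor T cells, against 536 and 573 CPM in RvD1 and vehicle recipient neutrophils and 610 and 676 CPM in RvD1 and vehicle donor neutrophils. Tfam, which packages and transcribes mitochondrial DNA, had 176 and 158 CPM in RvD1 and vehicle recipient B cells and 113 and 122 CPM in RvD1 and vehicle donor B cells, against 1.05 and 0.989 CPM in RvD1 and vehicle recipient neutrophils and 1.60 and 0.985 CPM in RvD1 and vehicle donor neutrophils. Nrf1 itself differed far less, with ratios over neutrophils of −0.12 ± 0.08 in classical monocytes and 0.60 ± 0.36 in T cells. Tfam had the largest ratio in B cells on the list of mitochondrial biogenesis regulators. Of this list 3 of 7 genes were higher than in neutrophils in B cells, 4 of 8 in T cells and 3 of 7 in NK cells, and none was lower. In nonclassical monocytes 4 of 6 were higher and 1 lower, and in classical monocytes none of 6 was higher and 1 was lower.

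Not every mitochondrial gene was low in neutrophils. Cox17, the copper chaperone of complex IV and no subunit, had 132 and 131 CPM in RvD1 and vehicle recipient T cells and 179 and 130 CPM in RvD1 and vehicle donor T cells, against 1030 and 965 CPM in RvD1 and vehicle recipient neutrophils and 1090 and 1304 CPM in RvD1 and vehicle donor neutrophils. It was thus 2.95 ± 0.30 lower in T cells and 1.67 ± 0.24 lower in classical monocytes (log2). Mrps28 and Mrpl33, proteins of the mitochondrial ribosome, were also lower in T cells than in neutrophils, by 3.66 ± 0.78 and 2.31 ± 0.40. Most genes of the lists that hold these 3 went the other way. Of the assembly factors, the list of Cox17, 19 of 26 were higher and 3 lower in T cells. In classical monocytes 13 of 21 assembly factors were higher and 1 was lower. The list of mitochondrial ribosomal proteins as a whole was higher, with 64 of 69 genes higher and 2 lower in T cells. Other lists of large complexes were higher as well. Of the cytosolic ribosomal proteins 80 of 81 were higher in T cells with a median of 4.02, and of the proteasome subunits 32 of 37 with a median of 1.95. The transcripts of S100a8 and S100a9 alone took 10.7, 10.6, 9.88 and 6.45% of neutrophil UMIs in the RvD1 recipient, vehicle recipient, RvD1 donor and vehicle donor libraries, and their part in the lower share of other genes was not tested.

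Within neutrophils the level differed between clusters. A cluster of 35 cells led by Camp, Ngp and Ltf, genes of the secondary granules that immature neutrophils make, had 8227 CPM of subunit transcripts and 7108 CPM of mitochondrially encoded ones. The other neutrophil clusters had 4335 to 5835 CPM and 1939 to 3118 CPM, with the highest subunit level in a cluster of 1233 cells and the lowest in one of 2634 cells. In the cluster of 35 cells Ndufa5 was at 10.2 CPM and Ndufa11 at 69.5 CPM, against 0.54 to 2.70 CPM and 2.29 to 4.45 CPM in the other neutrophil clusters. The Ndufa5 level in the 35 cells rests on few UMIs. They were 4 RvD1 recipient, 16 RvD1 donor and 15 vehicle donor cells, with no vehicle recipient cell. Their median depth was 9507 to 15425 UMIs by library, against 3716.5 to 6321 UMIs in the other neutrophil clusters.

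Complex IV and complex I include subunits with a tissue-restricted form, and 8 such genes fall under the symbol rule. Cox6a2, the heart and skeletal muscle form of subunit VIa (chr7:128205435-128206387 on GRCm38), was found almost wholly in plasmacytoid dendritic cells, the type I interferon producers of the dendritic lineage. These cells held 1255 of its 1357 UMIs, or 92.5%. It had 972 CPM (143 UMIs) and 931 CPM (146 UMIs) in RvD1 and vehicle recipient plasmacytoid cells and 1123 CPM (487 UMIs) and 690 CPM (479 UMIs) in RvD1 and vehicle donor plasmacytoid cells. At least 1 UMI was seen in 12 of 12, 11 of 13, 28 of 30 and 36 of 39 cells of the RvD1 recipient, vehicle recipient, RvD1 donor and vehicle donor libraries. In the other dendritic cells, which were of similar depth, the counts were 0 of 35, 0 of 12, 3 of 156 and 2 of 279 cells in the same order. With the floor of 3 counts in place of 0, the share of cells with a UMI is at most about 8.57 and 25%. This approximation is no limit on cells that express the gene. The median depth was 12659 to 17441 UMIs in plasmacytoid cells and 14226 to 18253 UMIs in the other dendritic cells. Cox6a2 was used neither for clustering nor as a marker of the class, and all 6 markers of plasmacytoid cells had UMIs in each library.

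The ubiquitous partner Cox6a1 was present in plasmacytoid cells as well, at 197 and 274 CPM in the RvD1 and vehicle recipient libraries and 224 and 167 CPM in the RvD1 and vehicle donor libraries. The other dendritic cells had Cox6a1 at 187 and 151 CPM in the RvD1 and vehicle recipient libraries and 192 and 163 CPM in the RvD1 and vehicle donor libraries. Of the UMIs of both genes, Cox6a2 took 83.1% (95% exact interval 76.7 to 88.4) and 77.2% (70.6 to 83.0) in RvD1 and vehicle recipient plasmacytoid cells and 83.4% (80.1 to 86.3) and 80.5% (77.1 to 83.6) in RvD1 and vehicle donor plasmacytoid cells. The 4 intervals overlap. In neutrophils the share of Cox6a2 was 0 to 0.360%.

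Cox4i2, a form of subunit IV known from lung and from hypoxia, had 335 UMIs, of which 106 were in endothelial-like cells and 172 in neutrophils. Endothelial-like cells had 23.3 and 29.5 CPM in the RvD1 and vehicle recipient libraries and 42.8 and 43.3 CPM in the RvD1 and vehicle donor libraries. In neutrophils it differed by treatment. RvD1 and vehicle recipient neutrophils had 17 and 100 UMIs (1.12 and 5.20 CPM), and RvD1 and vehicle donor neutrophils had 14 and 41 UMIs (1.40 and 5.05 CPM). A UMI was seen in 0.527% of RvD1 and 2.67% of vehicle recipient neutrophils and in 0.736% of RvD1 and 2.76% of vehicle donor neutrophils. B cells are of about the same depth (4646 to 6575.5 UMIs per cell at the median, against 4874.5 to 5344 in neutrophils). They had none in 925 and 864 recipient cells or in 263 and 448 donor cells. With the floor of 3 counts, the largest of these groups allows a share of up to about 0.324%. That is a share of cells with a UMI, not of expressing cells. Neutrophil Cox4i2 was lower with RvD1 by 2.22 on the log2 scale in recipient cells (95% interval −3.06 to −1.47). In donor cells the counts, 55 UMIs in all, were under the minimum for a described ratio. A neutrophil cluster of 148 cells went the other way on few UMIs. It had 36.3 and 16.9 CPM in RvD1 and vehicle recipient cells and 33.9 and 5.28 CPM in RvD1 and vehicle donor cells. A cluster of 1452 cells had 2.37 and 1.48 CPM in recipient and 1.35 and 2.00 CPM in donor cells. In the other neutrophil clusters the level was lower with RvD1. The part of the cluster shares was not tested. Even with vehicle Cox4i2 made up 2.41 and 2.44% of the UMIs of both subunit IV genes in recipient and donor neutrophils.

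Cox6b2, known as a testis form of subunit VIb, had 680 UMIs, of which 269 were in alveolar macrophages and 198 in classical monocytes. Alveolar macrophages had 53.0 CPM (6 UMIs, 6 cells) and 41.9 CPM (3 UMIs, 4 cells) in the RvD1 and vehicle recipient libraries, which are few cells. In the RvD1 and vehicle donor libraries they had 52.3 CPM (19 UMIs, 41 cells) and 38.6 CPM (241 UMIs, 222 cells). In the vehicle donor library the gene took 9.36% of the UMIs of both subunit VIb genes in these cells (8.26 to 10.5). In classical monocytes it took 1.38 to 3.22%. All 45 UMIs of Ndufa4l2, a hypoxia-induced relative of Ndufa4 known from pericytes, and 9 of 10 UMIs of Cox8b, a form of heart and brown fat, were in endothelial-like cells. Cox7a1, the heart and muscle form of subunit VIIa, had 198 UMIs spread over many classes, with 37 in gamma-delta T cells and 33 in alveolar macrophages. The testis forms Cox8c and Cox7b2 had 2 and 6 UMIs.

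**Figure D3:**
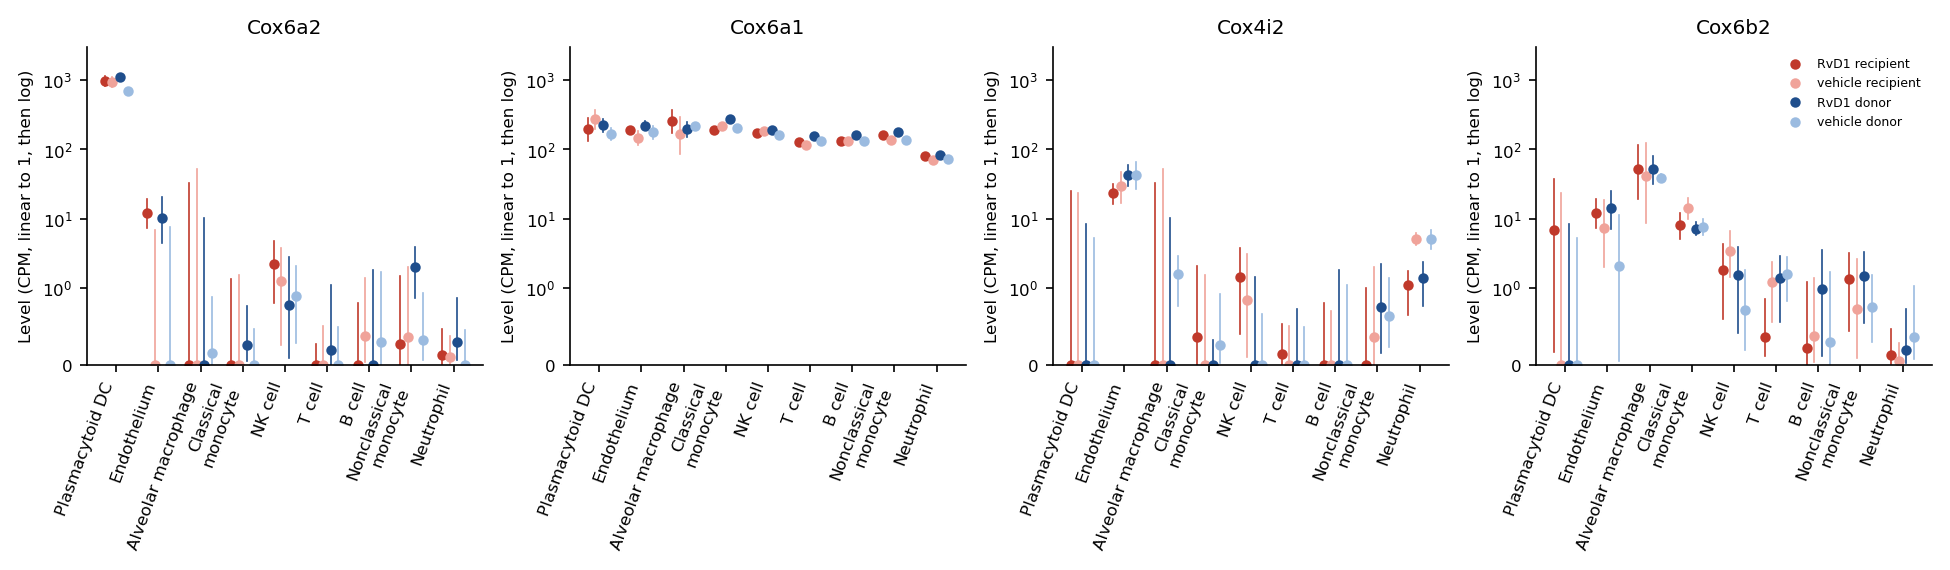
Levels of Cox6a2, its partner Cox6a1, Cox4i2 and Cox6b2 in 9 classes (CPM, on an axis that is linear up to 1 and logarithmic above). Points are libraries, and lines are 95% Poisson intervals of the counts. Cox6a2 stands at 690 to 1123 CPM in plasmacytoid dendritic cells, while Cox6a1 is lowest in neutrophils among these classes.

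The first comparison of the design sets RvD1 against vehicle. In nonclassical monocytes, the patrolling subset, the subunit transcripts were higher with RvD1 than with vehicle in both origins. All subunits together had 11755 and 9151 CPM in RvD1 and vehicle recipient cells and 12602 and 8775 CPM in RvD1 and vehicle donor cells, so both RvD1 libraries lie above both vehicle libraries. The median log2 ratio of RvD1 over vehicle was 0.37 in recipient and 0.58 in donor cells over 73 genes, against 0.07 and −0.05 over all genes. Upwards, 35 of 73 subunit genes passed 1.5-fold in donor cells (7.7% of all genes) and 10 of 73 in recipient cells (8.33% of all genes), and downwards none did in donor (12.3%) or recipient cells (11.5%). In both origins at once 8 of 73 passed 1.5-fold, against 2.42% of all genes. The origins are separate libraries but not independent, since they share the treatment and its software version, and the labels do not say whether they came from the same lungs. The 8 were 5 genes of complex I (Ndufa6 and Ndufa9 of the matrix arm, Ndufb2 and Ndufb10 of the membrane arm and the core iron-sulfur subunit Ndufv2), Uqcr11 of complex III, Cox5a of complex IV and Atp5d of the central stalk.

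Ndufb2 had 68.6 and 38.6 CPM in RvD1 and vehicle recipient nonclassical monocytes and 74.0 and 41.3 CPM in RvD1 and vehicle donor nonclassical monocytes, with log2 ratios of 0.83 (0.50 to 1.17) and 0.84 (0.62 to 1.06) that cover counting error only. Ndufa6 had 255 and 160 CPM in the RvD1 and vehicle recipient libraries and 259 and 126 CPM in the RvD1 and vehicle donor libraries, with ratios of 0.67 and 1.04. Cox5a had 209 and 139 CPM in the RvD1 and vehicle recipient libraries and 235 and 152 CPM in the RvD1 and vehicle donor libraries. For all 3 genes the RvD1 libraries were apart from the vehicle libraries. By contrast Ndufs1 had 37.3 and 36.0 CPM in RvD1 and vehicle recipient cells and 36.6 and 35.3 CPM in RvD1 and vehicle donor cells, 4 values that lie together.

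The class is made of 2 clusters that RvD1 and vehicle libraries held in different parts. Over the whole class the sum of 10 neutrophil markers was 6568 and 31862 CPM in RvD1 and vehicle recipient cells. In RvD1 and vehicle donor cells it was 10886 and 10453 CPM, or 1853 and 2698 CPM without S100a8 and S100a9. The smaller cluster made up 13.2% of the class in RvD1 and 48.0% in vehicle recipient cells, and 24.8% in RvD1 and 38.95% in vehicle donor cells. Its summed level of 10 neutrophil markers was 32766 to 33745 CPM in the RvD1 libraries and 19277 to 48248 CPM in the vehicle libraries, with UMIs of all 10, Ly6g included. In the larger cluster the sum was 766 to 783 CPM with RvD1 and 417 to 826 CPM with vehicle, and Ly6g was at 0 in 3 of the 4 libraries. Cells of the smaller cluster had a median of 13210 to 18660 UMIs, against 8085.5 to 11222.5 UMIs in the larger cluster, and were not marked as doublets. Its subunit level was 8146 and 7768 CPM in RvD1 and vehicle recipient cells and 9094 and 7070 CPM in RvD1 and vehicle donor cells, below the 12524 and 11805 CPM of RvD1 and vehicle recipient cells and the 14224 and 10634 CPM of RvD1 and vehicle donor cells in the larger cluster. In the larger cluster alone the median ratio of RvD1 over vehicle was 0.07 in recipient and 0.45 in donor cells, in the smaller one 0.07 and 0.39, and no gene passed 1.5-fold in both origins once the smaller cluster was left out. With the mean over cells in place of summed UMIs 1 gene did. The recipient medians within each cluster thus lie well under the 0.37 of the whole class, and the donor medians stay nearer to its 0.58.

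In the other classes the subunit genes moved less. Donor cells with RvD1 had higher median levels than donor cells with vehicle in each class compared, but for neutrophils the sign turned (−0.056) without 1 cluster, described with the gene lists. The median was 0.39 in classical monocytes, 0.35 in T cells, 0.27 in B cells, 0.25 in NK cells and 0.10 in neutrophils, against −0.02, −0.12, −0.26, −0.10 and 0.02 over all genes in the same order. Donor dendritic cells and donor gamma-delta T cells, which had enough cells only in the donor libraries, had medians of 0.26 and 0.31, against −0.07 and −0.10 over all genes. Those past 1.5-fold upwards numbered 10 of 74 in classical monocytes (8.91% of all genes), 3 of 73 in T cells (5.35%), 8 of 73 in B cells (3.81%), 1 of 73 in NK cells (3.75%), 2 of 65 in neutrophils (10.6%), 2 of 73 in dendritic cells (4.52%) and 8 of 73 in gamma-delta T cells (4.08%). RNA of the 10 neutrophil markers moved with this contrast in lymphocytes. The sum was 2118 and 91.8 CPM in RvD1 and vehicle donor B cells, 1652 and 120 CPM in NK cells and 465 and 92.9 CPM in T cells. In classical monocytes of the same libraries it was 1654 and 1076 CPM, but 963 and 975 CPM without S100a8 and S100a9. Of the 10 markers, Ly6g was at 0 in RvD1 donor T cells and in vehicle donor NK cells and classical monocytes, and Cxcr2, Mmp9 and Ly6g were at 0 in vehicle donor B cells. In recipient cells the sum was lower with RvD1, at 308 and 913 CPM in RvD1 and vehicle B cells and 402 and 950 CPM in RvD1 and vehicle T cells. The part of this RNA in the subunit ratios was not tested. All 10 in classical monocytes belonged to complex I, led by Ndufv3 at 0.94, Ndufb3 at 0.76 and the flavin-binding core subunit Ndufv1 at 0.73. Downwards, no subunit gene passed 1.5-fold in donor cells of these classes, where 9.19% of all genes did in classical monocytes, 10.1% in T cells, 20.3% in B cells, 8.09% in NK cells, 15.3% in neutrophils, 10.4% in dendritic cells and 10.7% in gamma-delta T cells.

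Recipient cells showed smaller ratios of RvD1 over vehicle. The median was 0.01 in classical monocytes, 0.03 in NK cells, 0.16 in T cells, 0.16 in B cells and 0.19 in neutrophils, against −0.05, −0.06, −0.09, −0.08 and 0.12 over all genes. No subunit gene passed 1.5-fold in either direction in these lymphocytes and classical monocytes. Of all genes, 4.51% were higher and 8.62% lower in classical monocytes, 2.54 and 4.0% in B cells, 2.99 and 4.91% in NK cells, 3.58 and 5.95% in T cells, in that order. In neutrophils 6 of 72 were higher (12.1% of all genes) and 1 was lower, Cox4i2 (12.7% of all genes).

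**Figure D4:**
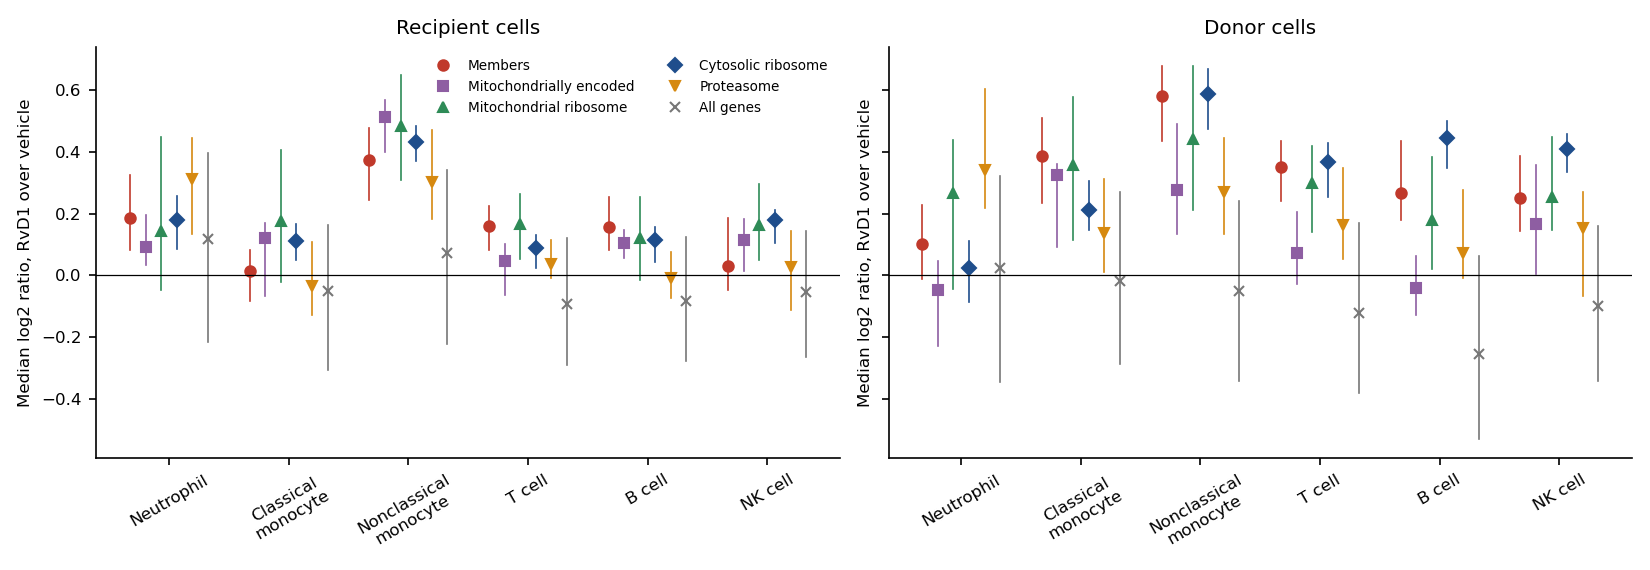
Median log2 ratio of RvD1 over vehicle in recipient and donor cells of 6 classes, for the subunit genes (members), for 4 other gene lists and for all genes. Lines run from the lower to the upper quartile of the genes. The subunit genes lie highest in nonclassical monocytes, at 0.37 in recipient and 0.58 in donor cells, and cytosolic and mitochondrial ribosomal proteins lie at similar heights there.

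Several single genes moved alike in both origins. Ndufa6 had 273 and 209 CPM in RvD1 and vehicle recipient T cells and 254 and 190 CPM in RvD1 and vehicle donor T cells. In NK cells it had 319 and 220 CPM in the RvD1 and vehicle recipient libraries and 250 and 185 CPM in the RvD1 and vehicle donor libraries, and in B cells 239 and 185 CPM in the recipient and 201 and 135 CPM in the donor libraries of RvD1 and vehicle. In each of these 3 classes both RvD1 values exceed both vehicle values, by less than 1.5-fold within each origin. Ndufs1 was lower with RvD1 than with vehicle in lymphocytes, by less than 1.5-fold, at 33.7 and 36.0 CPM in RvD1 and vehicle recipient T cells and 36.0 and 51.4 CPM in RvD1 and vehicle donor T cells. The ratio was −0.10 (−0.32 to 0.13) in recipient and −0.51 (−0.78 to −0.25) in donor T cells, and in B cells −0.10 and −0.54, so the recipient T cell interval includes 0. Atp5a1 was lower as well in T cells, with ratios of −0.18 in recipient and −0.21 in donor cells. In neutrophils Ndufs1 was higher with RvD1, at 25.2 and 15.4 CPM in RvD1 and vehicle recipient cells and 19.6 and 13.7 CPM in RvD1 and vehicle donor cells. Its ratios there were 0.71 (0.49 to 0.93) and 0.52 (0.17 to 0.87). The Rieske protein gene Uqcrfs1 was the 1 of 65 that passed 1.5-fold in both origins of neutrophils (4.84% of all genes), with 16.2 and 10.6 CPM in RvD1 and vehicle recipient cells and 17.5 and 9.48 CPM in RvD1 and vehicle donor cells. No gene passed with ratios centred on all genes, with the mean over cells, or without the cluster led by Enthd1, Pnpla7 and Fnip2.

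Other lists were also higher with RvD1. In donor cells the median ratio of cytosolic ribosomal proteins was 0.44 in B cells, 0.41 in NK cells, 0.37 in T cells and 0.21 in classical monocytes, and 0.03 in neutrophils. In nonclassical monocytes all 4 lists were higher in both origins. The median ratio of RvD1 over vehicle in recipient and donor cells was 0.43 and 0.59 for cytosolic ribosomal proteins, 0.48 and 0.44 for mitochondrial ribosomal proteins, 0.51 and 0.28 for mitochondrially encoded subunits and 0.30 and 0.27 for proteasome subunits. These are ratios of the whole class, with its 2 clusters in different parts. In the larger cluster, cytosolic ribosomal proteins had 143530 and 144510 CPM in RvD1 and vehicle recipient cells. In donor cells they had 160586 and 119382 CPM. Mitochondrially encoded subunits had 20921 and 20042 CPM there in recipient and 22720 and 18238 CPM in donor cells. In the smaller cluster, cytosolic ribosomal proteins had 80501 and 75304 CPM in recipient and 90854 and 72409 CPM in donor cells. In neutrophils a cluster led by Enthd1, Pnpla7 and Fnip2 made up 2.21% of RvD1 and 44.0% of vehicle recipient cells, and 11.6% of RvD1 and 62.1% of vehicle donor cells. Without it the median of donor neutrophils was −0.06. Its part in the differences between treatments was not tested further.

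The second comparison sets the cells sorted as recipient-derived against those sorted as donor-derived. The origin is taken from the labels. The RvD1 and vehicle recipient libraries also held 176 and 50 endothelial-like cells and 6 and 4 alveolar macrophages, and how complete the split by origin was, was not tested. Here each ratio lies within 1 software version. In T cells the subunit transcripts were lower in recipient cells with RvD1, with a median log2 ratio of recipient over donor of −0.25, and −0.07 with vehicle, against −0.18 and −0.20 over all genes. Ndufb7, a membrane-arm subunit of complex I, had 94.8 and 167 CPM in RvD1 recipient and donor T cells and 90.1 and 120 CPM in vehicle recipient and donor T cells. Both recipient libraries lie below both donor libraries, with ratios of −0.82 (−0.94 to −0.69) with RvD1 and −0.41 (−0.55 to −0.26) with vehicle. With RvD1, Ndufb7 and Ndufa12 were the 2 of 73 genes at least 1.5-fold lower in recipient T cells (14.1% of all genes), and with vehicle none was (13.5%). None was that much higher with RvD1 (3.93%) or vehicle (1.97%). Cox7a2l ran the other way, with 501 and 412 CPM in RvD1 recipient and donor T cells and 438 and 321 CPM in vehicle recipient and donor T cells.

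A cluster of T cells led by Tnfrsf4 and Ctla4, which mark activated and regulatory T cells, made up 13.8% of recipient and 60.9% of donor T cells with RvD1, and 11.8% of recipient and 51.6% of donor T cells with vehicle. It held the highest subunit levels among T cells, 16179 and 16212 CPM in RvD1 recipient and donor cells and 13847 and 12950 CPM in vehicle recipient and donor cells, against 9661 to 12189 CPM in the other 2 clusters. Ndufb7 had 147 to 219 CPM in this cluster and 73.8 to 117 CPM in the others, and Cox7a2l had 254 to 389 CPM in it and 371 to 569 CPM in the others. Without this cluster the median of recipient over donor was −0.06 with RvD1 and 0.10 with vehicle. Within it the medians were 0.00 and 0.10.

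**Figure D5:**
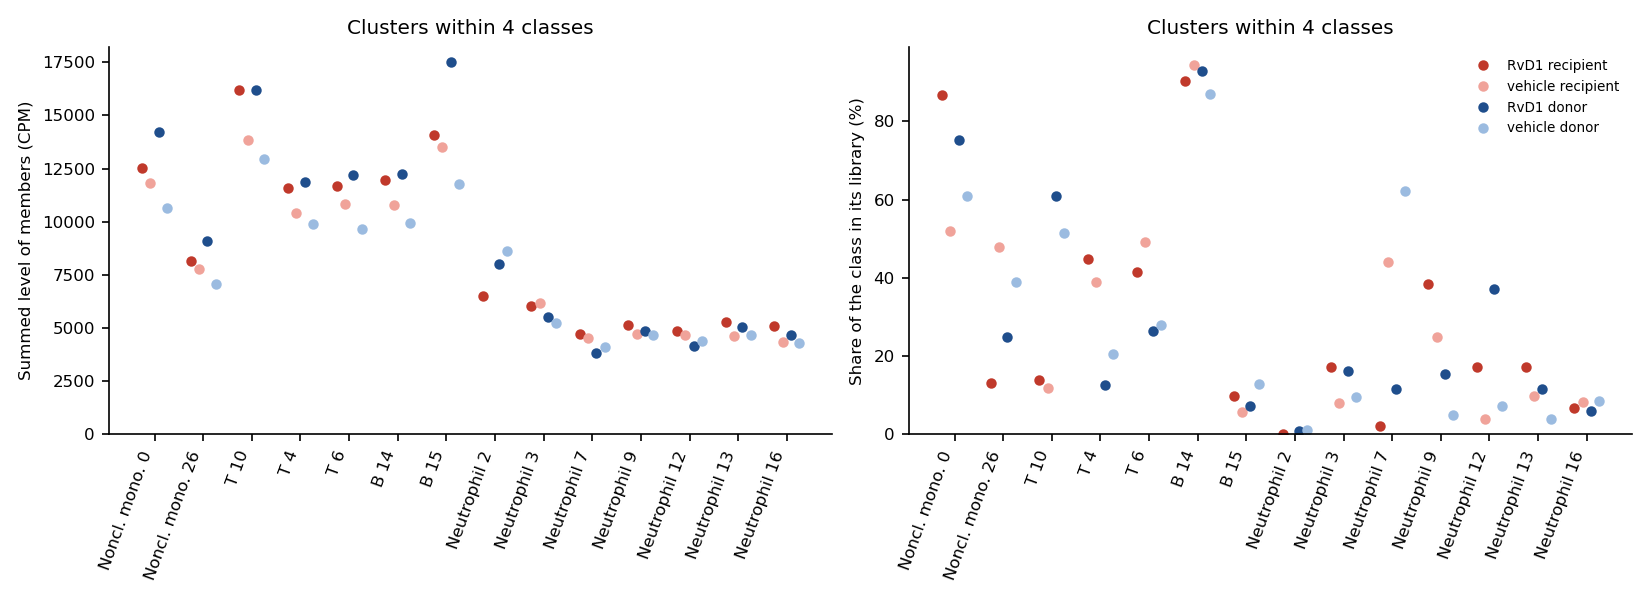
Left, summed level of the subunit genes (CPM) in the clusters of nonclassical monocytes, T cells and B cells and in 7 of the 8 clusters of neutrophils. Right, the share of its class that each cluster makes up in a library (%). Points are libraries, and cluster numbers are arbitrary names. T cell cluster 10 is highest among T cells at 12950 to 16212 CPM and makes up more of the donor than of the recipient T cells.

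In neutrophils the median of recipient over donor was 0.21 with RvD1 and 0.04 with vehicle, against −0.03 and −0.13 over all genes. Without the Enthd1, Pnpla7 and Fnip2 cluster the vehicle median was −0.087, so its direction is not settled. Ndufv3, a supernumerary subunit at the flavin end of complex I, had 16.1 and 10.6 CPM in RvD1 recipient and donor neutrophils and 13.996 and 8.86 CPM in vehicle recipient and donor neutrophils. With RvD1, 3 of 69 subunit genes (Ndufv3, Uqcr11 and Ndufs8) were past 1.5-fold higher in recipient neutrophils (5.88% of all genes) and none lower (8.4%). With vehicle, 2 of 70 (Ndufv3 and Ndufa8) were higher (4.08%) and 2 (Ndufc2 and Ndufv2) lower (11.4%). Ndufv3 was the 1 of 68 genes that was at least 1.5-fold higher in recipient neutrophils under both treatments (1.34% of all genes), and none was without that cluster or at a finer clustering. Atp5c1, the rotating shaft of ATP synthase, had 51.2 and 36.0 CPM in RvD1 recipient and donor neutrophils and 47.8 and 32.3 CPM in vehicle recipient and donor neutrophils. Of the rotor ring genes, Atp5g1 and Atp5g3 were lower in recipient neutrophils, while Atp5g2 had 17.9 and 14.9 CPM in RvD1 recipient and donor neutrophils and 13.9 and 14.3 CPM in vehicle recipient and donor neutrophils. Atp5g1 had 12.7 and 17.7 CPM in RvD1 recipient and donor neutrophils and 11.1 and 16.6 CPM in vehicle recipient and donor neutrophils, and Atp5g3 had 11.5 and 16.1 CPM with RvD1 and 12.4 and 16.7 CPM with vehicle in the same order. For Ndufv3, Atp5c1, Atp5g1 and Atp5g3 the recipient and donor libraries did not overlap.

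Classical monocytes had medians of recipient over donor of −0.22 with RvD1 and 0.18 with vehicle, nonclassical monocytes −0.11 and 0.04, B cells −0.06 and 0.07, and NK cells 0.03 and 0.23. In none of these 4 classes was a subunit gene at least 1.5-fold apart between recipient and donor cells in either direction. With RvD1, 2.84% of all genes were higher and 7.38% lower in classical monocytes, 1.98 and 3.15% in nonclassical monocytes, 1.28 and 2.08% in NK cells, 5.7 and 3.82% in B cells. With vehicle, 3.89% were higher and 6.86% lower in classical monocytes, 3.22 and 5.86% in nonclassical monocytes, 1.37 and 3.56% in NK cells, 1.57 and 4.12% in B cells. Ndufa6 was higher in recipient than in donor cells in B cells, NK cells, classical monocytes and T cells. Its log2 ratios with RvD1 and with vehicle were 0.129 and 0.575 in classical monocytes and 0.105 and 0.134 in T cells. The gene had 239 and 201 CPM in RvD1 recipient and donor B cells and 185 and 135 CPM in vehicle recipient and donor B cells. In NK cells it had 319 and 250 CPM with RvD1 and 220 and 185 CPM with vehicle in recipient and donor cells.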

How the data were processed

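Droplet single-cell RNA counts (10x Genomics) of 4 libraries of sorted CD45+ lung-graft leukocytes were used, with 1 library per group. The deposited matrices hold raw UMI counts per gene and cell, made with Cell Ranger 7.0.1 (RvD1) and 6.1.1 (vehicle) per the file headers, on mm10 per the submitters' processing notes, which also name Seurat 4.0.0. The sources used here do not say whether intronic reads were included. Total UMIs were 49967935, 42199775, 44338340 and 61294707 in the RvD1 recipient, vehicle recipient, RvD1 donor and vehicle donor libraries.

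Cells with under 200 genes or over 10% mitochondrial UMIs and computed doublets (278, 89, 68 and 131 in the same order) were left out. Cells were clustered with scanpy 1.11.5 (2000 variable genes per library, 30 principal components, Leiden resolution 1), leaving the subunit, mitochondrial, ribosomal, haemoglobin and sex-linked genes out of the variable genes, and classes were named from marker lists. UMIs were summed per class and library. A class was compared with at least 100 cells in both libraries and a gene with at least 100 UMIs over both, and a call means at least 1.5-fold. Intervals are 95% exact and, like the floor of 3 counts, cover counting error only. No test was made, since a group is 1 library.

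The members and lists were chosen with earlier results of these data known. Genes named are the 2 of highest mean level per complex, the tissue-restricted isoforms with their partners, up to 3 per class and comparison with the largest ratio in both contrasts, and those at either end of a comparison. Cox17, Tfam, Nrf1, Cyc1, Mrps28 and Mrpl33, and the clusters described singly, were chosen after their values were seen. Alternatives covered the normalization, the UMI minimum, the fold, the filters on cells, doublets and the clustering.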

Additional observations from a re-analysis of the deposited data

Results flagged for a closer look

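The summed subunit level of recipient over donor cells had opposite signs under RvD1 and vehicle in several classes, which drew attention to it. The difference between treatments was not tested, since each group is 1 library. In classical monocytes the log2 ratio with RvD1 and with vehicle was −0.156 and 0.181 for all subunits, −0.186 and 0.244 for complex I, −0.104 and 0.168 for complex III, −0.135 and 0.207 for complex IV and −0.163 and 0.097 for ATP synthase. In nonclassical monocytes it was −0.1 and 0.061 for all subunits with RvD1 and with vehicle, −0.097 and 0.105 for complex I, −0.124 and 0.049 for complex IV and −0.098 and 0.045 for ATP synthase. B cells had −0.07 and 0.091 with RvD1 and with vehicle for all subunits, −0.098 and 0.126 for complex IV and −0.126 and 0.061 for ATP synthase. In T cells only complex IV had opposite signs, at −0.197 and 0.039 with RvD1 and with vehicle. The sizes lie below the 1.5-fold used for single genes.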

How the results depend on the processing

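No paired analysis was possible because each group is 1 library and the groups share fewer than 2 replicate numbers, so no fit with a replicate block can be made. The ratios to neutrophils are taken within a library, which is a different pairing. Of 480 values recomputed for 55 results, 391 stayed within their spread or count limit and 89 moved, and the cause was not tested. Dendritic cells could not be named at a Leiden resolution of 2 or with doublets kept and have no value there. Counts are of subunit genes past the fold in both contrasts, and medians are log2 ratios. The share of all genes past the fold is not given at these other settings. The counts therefore compare one setting with another and not the subunit genes with other genes.

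With ratios centred on the median of all genes the medians were, for RvD1 over vehicle in recipient cells, 0.069 in neutrophils, 0.066 in classical monocytes, 0.30 in nonclassical monocytes, 0.25 in T cells and 0.24 in B cells. That setting also gave, for RvD1 over vehicle in donor cells, 0.63 in nonclassical monocytes, 0.47 in T cells, 0.52 in B cells, 0.35 in NK cells, 0.33 in dendritic cells and 0.41 in gamma-delta T cells. It further gave, for recipient over donor with RvD1, −0.070 in T cells and −0.15 in B cells. Its other medians were, for recipient over donor with vehicle, 0.18 in neutrophils, 0.23 in classical monocytes, 0.11 in nonclassical monocytes, 0.13 in T cells, 0.13 in B cells and 0.30 in NK cells. The gene counts were 0 in neutrophils and 5 in nonclassical monocytes higher for RvD1 over vehicle. With totals that left out ribosomal and mitochondrial UMIs the medians were, for RvD1 over vehicle in recipient cells, 0.44 in nonclassical monocytes, 0.21 in T cells and 0.20 in B cells. Moreover it gave, for RvD1 over vehicle in donor cells, 0.44 in classical monocytes, 0.66 in nonclassical monocytes, 0.48 in T cells, 0.40 in B cells, 0.33 in NK cells and 0.39 in gamma-delta T cells. That setting also gave, for recipient over donor with RvD1, −0.10 in T cells. It further gave, for recipient over donor with vehicle, 0.15 in T cells, 0.15 in B cells and 0.29 in NK cells. The summed level over neutrophils was 2.15 in classical monocytes, 1.94 in T cells, 1.72 in B cells and 1.96 in NK cells. Genes passing in both were 15 in nonclassical monocytes higher for RvD1 over vehicle. With the mean over cells of the share of UMIs the medians were, for RvD1 over vehicle in recipient cells, −0.039 in classical monocytes and 0.25 in nonclassical monocytes. Its other medians were, for recipient over donor with RvD1, −0.002 in NK cells. Moreover it gave, for recipient over donor with vehicle, 0.11 in nonclassical monocytes. As for counts, there were 0 in neutrophils and 1 in nonclassical monocytes higher for RvD1 over vehicle. With each library clustered alone the medians were, for RvD1 over vehicle in recipient cells, 0.052 in T cells. That setting also gave, for RvD1 over vehicle in donor cells, 0.19 in neutrophils, 0.46 in T cells and 0.070 in dendritic cells. It further gave, for recipient over donor with RvD1, −0.28 in classical monocytes, −0.19 in nonclassical monocytes, −0.40 in T cells and −0.13 in B cells. Its other medians were, for recipient over donor with vehicle, −0.020 in nonclassical monocytes and −0.030 in T cells. Passing genes were 5 in nonclassical monocytes higher for RvD1 over vehicle. At a Leiden resolution of 2 the medians were, for recipient over donor with RvD1, −0.040 in nonclassical monocytes. Moreover it gave, for recipient over donor with vehicle, 0.11 in nonclassical monocytes. Counts there were 4 in nonclassical monocytes higher for RvD1 over vehicle, and 0 in neutrophils higher for recipient over donor. With doublets kept the medians were, for RvD1 over vehicle in donor cells, 0.49 in nonclassical monocytes. That setting also gave, for recipient over donor with RvD1, −0.032 in nonclassical monocytes. It further gave, for recipient over donor with vehicle, 0.089 in nonclassical monocytes. The gene counts were 4 in nonclassical monocytes higher for RvD1 over vehicle. At a lower fold for a call (log2 of 0.32) the gene counts were 6 in neutrophils, 1 in classical monocytes, 42 in nonclassical monocytes, 4 in T cells, 5 in B cells and 10 in NK cells higher for RvD1 over vehicle, and 10 in neutrophils higher for recipient over donor, and 2 in neutrophils, 1 in nonclassical monocytes and 3 in T cells lower for recipient over donor. At a minimum of 50 UMIs the gene counts were 1 in neutrophils lower for RvD1 over vehicle. Without the nonclassical monocyte cluster that carries S100a8, chosen after seeing the data, the medians were, for RvD1 over vehicle in recipient cells, 0.067 in nonclassical monocytes. Its other medians were, for RvD1 over vehicle in donor cells, 0.45 in nonclassical monocytes. Moreover it gave, for recipient over donor with RvD1, −0.21 in nonclassical monocytes. That setting also gave, for recipient over donor with vehicle, 0.12 in nonclassical monocytes. The summed level over neutrophils was 1.36 in nonclassical monocytes. Genes passing in both were 0 in nonclassical monocytes higher for RvD1 over vehicle. Without the Tnfrsf4 and Ctla4 cluster of T cells, chosen after seeing the data, the medians were, for RvD1 over vehicle in donor cells, 0.29 in T cells. It further gave, for recipient over donor with RvD1, −0.057 in T cells. Its other medians were, for recipient over donor with vehicle, 0.098 in T cells. Without the Enthd1, Pnpla7 and Fnip2 cluster of neutrophils, chosen after seeing the data, the medians were, for RvD1 over vehicle in recipient cells, 0.14 in neutrophils. Moreover it gave, for RvD1 over vehicle in donor cells, −0.056 in neutrophils. That setting also gave, for recipient over donor with vehicle, −0.087 in neutrophils. As for counts, there were 0 in neutrophils higher for RvD1 over vehicle, and 0 in neutrophils higher for recipient over donor.

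Depth limits the low genes most. Ndufa5 rests on 14 to 19 UMIs in neutrophils of each library, and recipient plasmacytoid dendritic cells number 12 with RvD1 and 13 with vehicle.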

Other observations

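Cells of smaller classes also differed in subunit level. Mast cell and basophil-like cells (233 cells) had 8360 and 7610 CPM of all subunits in the RvD1 and vehicle recipient libraries and 9490 and 6246 CPM in the RvD1 and vehicle donor libraries, between neutrophils and lymphocytes. Ndufa5 was at 8.62 CPM in these cells over all libraries. Plasmacytoid dendritic cells had 17768 and 17864 CPM in the RvD1 and vehicle recipient libraries and 18164 and 15345 CPM in the RvD1 and vehicle donor libraries, in the range of classical monocytes. Donor gamma-delta T cells had 17278 CPM with RvD1 and 14259 CPM with vehicle, above the 14310 and 11193 CPM of the other donor T cells with RvD1 and vehicle.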
